A study of Mus musculus with 50 samples.

Results

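A set of 34 genes of the cell division cycle, 17 that act in DNA replication and 17 that act in mitosis, were followed through the 8 RNA-seq libraries of a study of the long non-coding RNA Xist. They were chosen by gene symbol from the RNA count tables, with replication and mitosis genes kept apart. Earlier results of these data were known at that choice, so their counts beside those of all genes are description only. All 34 were among the 24391 genes listed, and all 34 passed the filter on low counts that left 15149 genes for testing in the embryonic stem (ES) cell cultures. The replication genes were Mcm2, Mcm3, Mcm4, Mcm5, Mcm6, Mcm7, Pcna, Tyms, Rrm1, Rrm2, Cdc6, Cdt1, Gins1, Gins2, Ccne1, Ccne2 and E2f1. The mitosis genes were Mki67, Top2a, Ccna2, Ccnb1, Ccnb2, Cdk1, Cdc20, Bub1, Bub1b, Mad2l1, Plk1, Aurka, Aurkb, Birc5, Kif11, Cenpe and Ttk.

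Xist coats the inactive X chromosome, and Repeat B is a tandem repeat within it through which Polycomb complexes are brought to that chromosome. The study asked what happens when Repeat B is deleted, and none of the 34 genes lies on the X chromosome. Its ES cultures were RepB+/- (heterozygous deletion), RepB-/- (homozygous deletion) and wild type, with 2 libraries each, and its mouse embryonic fibroblasts (MEF) were 1 library with loss of Repeat B and 1 wild type library. All 8 came from a CAST/Ei by 129/Sv/Jae background, so part of the reads could be given to the CAST or the 129 allele. The ES cells had spent 3 days on irradiated MEF feeders, were freed of feeders, formed embryoid bodies for 4 days in suspension and were kept for another 10 days on gelatin-coated plates, so the libraries are of mixed differentiated cultures and not of undifferentiated stem cells. The labels do not say which Xist allele RepB+/- cells lost, whether the RepB MEF lost 1 or both, or whether each genotype is 1 clone. Because the deletion removes only part of Xist, the count over the whole gene does not check the genotype. Nothing in the labels says that the 2 libraries of a genotype came from separate cultures, so p-values measure the spread between those libraries, which may be technical.

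A dividing cell copies its DNA once in S phase and separates the copies in mitosis, and each step has its own wave of transcription. In late G1 phase, E2F factors released from the retinoblastoma protein switch on genes for DNA replication, with cyclin E as a partner of CDK2. Before that, the loading factors Cdc6 and Cdt1 place the ring of Mcm2 to Mcm7 proteins on DNA, where it later becomes the replicative helicase together with the GINS complex. In G2 phase, genes for mitosis are switched on through a pair of promoter elements, the cell cycle genes homology region (CHR) and CCAAT boxes. In a culture, the level of both kinds of RNA rises with the share of cells that are cycling. In these bulk libraries fewer cycling cells and less RNA per cycling cell cannot be told apart.

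The libraries held between 8000722 counts (RepB+/- replicate 2) and 28045645 counts (RepB-/- replicate 1), and each of the 34 genes had at least 47 counts in every ES library and at least 120 in either MEF library. Levels are CPM, the counts as a rate of the library total, scaled by the trimmed mean of M-values (TMM). RepB+/- replicate 2 stood apart from the other 5 ES libraries on the second principal component. Markers of cell types moved with genotype in the ES cultures. Over all genes tested, 9.12% were higher and 6.84% lower in RepB+/- than in wild type, and 7.27% and 5.49% in RepB-/-. Of 11 pluripotency markers, 11 were higher in RepB+/- and 9 in RepB-/- than in wild type, with summed levels of 557 to 750 CPM in RepB+/-, 465 to 556 CPM in RepB-/- and 217 to 259 CPM in wild type. Of 11 cardiac muscle markers, 8 were lower in RepB+/- and 9 in RepB-/-, with summed levels of 409 to 454 CPM, 376 to 387 CPM and 825 to 932 CPM in the same order. Of 11 endoderm and yolk sac markers, 8 were higher in RepB+/- and 4 in RepB-/-, with summed levels of 1204 to 1230 CPM, 1042 to 1059 CPM and 714 to 734 CPM. Of 9 blood and macrophage markers tested, 5 were higher in RepB+/- and 6 in RepB-/-, with summed levels of 198 to 256 CPM, 218 to 281 CPM and 151 to 158 CPM. Of 8 neural markers tested, 3 were higher and 2 lower in RepB+/- and 2 higher and 2 lower in RepB-/-, with sums of 199 to 211 CPM, 170 to 181 CPM and 128 to 134 CPM. Of 11 fibroblast markers, 4 were higher and 1 lower in RepB+/- and 4 higher and 2 lower in RepB-/-, and their sums overlapped between genotypes. In no ES library was a marker of these lists at 0. The part of this shift in cell types in the levels of cell cycle genes was not tested.

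Letters of known cell cycle elements were looked for in promoter windows of the genes. RefSeq promoter windows (build GRCm38.p6, 250 bases before to 50 bases after the start) were held for 28 of the 34 genes, 13 for replication and 15 for mitosis. They were searched on both strands for the E2F-type letters TTCCCGC and TTGGCGC, for the CHR letters TTTGAA and TTCGAA, and for CCAAT. E2F-type letters stood in 7 of 13 replication promoters (53.8%), in 3 of 15 mitosis promoters (20.0%) and in 7.79% of all 27025 genes of the table. CHR and CCAAT letters together stood in 11 of 15 mitosis promoters (73.3%), in 2 of 13 replication promoters (15.4%) and in 8.61% of all genes. CHR letters alone stood in 21.7% of all genes and CCAAT in 41.1%, and the letters of an E2F-type site and a CCAAT box can overlap, as they did in Mcm7 and Ccnb1. These are matches of letters and not shown sites. None of these letters stood in 3 of 13 replication windows (Ccne1, E2f1 and Tyms) and 2 of 15 mitosis windows (Birc5 and Mad2l1). Of these genes, E2f1, Tyms and Mad2l1 were called higher in RepB+/- below, and Tyms in RepB-/- too. The windows were not checked against the starts of the counted transcripts, and other forms of these elements were not searched. The E2f1 window may lie downstream of such a start. A window without these letters therefore does not show that the gene's promoter lacks the elements. The windows of Mcm6, Cdc6, Bub1, Cdk1 and Ccnb2 are printed because the results below turn on these genes: Mcm6 and Bub1 rose in both RepB ES genotypes, Cdc6 rose in RepB+/- and did not pass the test in RepB-/-, and Cdk1 and Ccnb2 stood on opposite sides in MEF. The Cdc6 window may begin inside the first counted exon, and would then leave out the bases before that start. Capitals mark every match, 5′ to 3′ along the gene's strand. The Mcm6 window (chr1:128359656-128359955, minus strand) holds 2 E2F-type and 2 CCAAT matches, the Cdc6 window (chr11:98907901-98908200, plus strand) 1 E2F-type match, the Bub1 window (chr2:127831810-127832109, minus strand) 1 CHR and 2 CCAAT matches, the Cdk1 window (chr10:69352863-69353162, minus strand) 1 E2F-type, 2 CHR and 3 CCAAT matches, and the Ccnb2 window (chr9:70421505-70421804, minus strand) 2 CHR and 3 CCAAT matches.
Mcm6: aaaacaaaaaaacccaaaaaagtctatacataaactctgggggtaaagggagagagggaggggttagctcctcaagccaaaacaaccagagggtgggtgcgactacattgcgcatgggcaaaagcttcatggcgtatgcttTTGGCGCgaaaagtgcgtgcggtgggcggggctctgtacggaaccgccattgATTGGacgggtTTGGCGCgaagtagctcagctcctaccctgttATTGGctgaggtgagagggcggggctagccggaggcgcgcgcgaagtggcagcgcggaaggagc
Cdc6: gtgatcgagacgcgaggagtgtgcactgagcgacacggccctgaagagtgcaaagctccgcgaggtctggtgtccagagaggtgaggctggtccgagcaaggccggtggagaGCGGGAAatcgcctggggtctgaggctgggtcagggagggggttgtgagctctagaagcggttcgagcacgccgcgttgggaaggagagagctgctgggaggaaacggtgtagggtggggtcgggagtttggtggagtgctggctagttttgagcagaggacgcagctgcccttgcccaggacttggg
Bub1: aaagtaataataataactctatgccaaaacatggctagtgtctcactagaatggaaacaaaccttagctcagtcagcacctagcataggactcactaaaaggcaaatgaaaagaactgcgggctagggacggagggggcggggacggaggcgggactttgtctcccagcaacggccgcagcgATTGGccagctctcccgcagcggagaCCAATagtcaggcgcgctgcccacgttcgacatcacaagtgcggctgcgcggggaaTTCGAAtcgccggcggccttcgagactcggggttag
Cdk1: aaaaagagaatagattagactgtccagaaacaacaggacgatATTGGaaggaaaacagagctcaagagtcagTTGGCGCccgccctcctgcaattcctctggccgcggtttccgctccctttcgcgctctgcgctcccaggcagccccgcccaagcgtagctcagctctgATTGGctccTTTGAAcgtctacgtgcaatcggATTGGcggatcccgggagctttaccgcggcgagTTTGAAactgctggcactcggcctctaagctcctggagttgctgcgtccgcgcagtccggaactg
Ccnb2: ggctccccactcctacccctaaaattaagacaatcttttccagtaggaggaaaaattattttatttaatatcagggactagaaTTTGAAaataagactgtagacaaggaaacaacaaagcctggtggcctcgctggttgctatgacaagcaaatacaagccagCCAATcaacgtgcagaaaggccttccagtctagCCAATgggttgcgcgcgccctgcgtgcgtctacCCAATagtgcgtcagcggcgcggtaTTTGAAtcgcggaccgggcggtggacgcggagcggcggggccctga

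In RepB+/- ES cultures, 5 of 17 replication genes were higher than in wild type and none was lower. They were the helicase genes Mcm6 and Mcm7, the helicase loader Cdc6, the thymidylate synthase gene Tyms and the transcription factor gene E2f1. Of the 17 mitosis genes, 2 were higher, the spindle checkpoint genes Bub1 and Mad2l1, and none was lower. Over all 15149 genes tested by edgeR's quasi-likelihood test, 9.12% were higher and 6.84% lower at an adjusted p under 0.05. The median log2 fold change was 0.27 over the replication genes and 0.11 over the mitosis genes, beside 0.02 over all genes tested. Without the first RepB+/- library the mitosis median was 0.0030, without the second 0.18, and without the second wild type library 0.069. At an unadjusted p under 0.05, 10 replication and 3 mitosis genes were higher and none of either was lower, beside 17.4% of all genes higher and 13.7% lower. The share of mitosis genes, 3 of 17, was thus close to that of all genes. DESeq2 called none of the 34 lower. Of all genes called in RepB+/-, 57.2% were higher, and 74.0% with libraries scaled by total counts alone.

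Mcm6 had 163 and 149 CPM in RepB+/- cultures, against 105 and 103 CPM in wild type cultures. Neither RepB+/- library came near the wild type range, and the log2 fold change was 0.59 ± 0.11 (SE), with an edgeR adjusted p of 0.00222. Mcm7 had 108 and 106 CPM in RepB+/-, against 84.4 and 85.7 CPM in wild type, a log2 fold change of 0.33 ± 0.10 (adjusted p = 0.0342 by edgeR). The other helicase genes did not pass the test, although each was higher in either RepB+/- library than in any wild type library. Their log2 fold changes were 0.26 for Mcm3, 0.24 for Mcm4, 0.21 for Mcm2 and 0.14 for Mcm5. The nearest libraries were almost level for Mcm2, at 239 CPM in RepB+/- and 237 CPM in wild type, and for Mcm5, at 203 and 201 CPM. Separation with both RepB+/- libraries above both wild type libraries occurred for 13 of 17 replication genes and 7 of 17 mitosis genes, beside 30.5% of all genes tested.

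Cdc6, which loads the helicase on DNA, had 24.0 and 20.0 CPM in RepB+/-, against 14.8 and 15.9 CPM in wild type. Its log2 fold change was 0.55 ± 0.15 (adjusted p = 0.0213 by edgeR). Its partner Cdt1 had 153 and 173 CPM in RepB+/-, against 171 and 180 CPM in wild type, and the groups overlapped. Of the GINS genes, Gins1 had 11.8 and 7.11 CPM in RepB+/- and 7.33 and 6.70 CPM in wild type, so that 1 of the RepB+/- libraries lay within the wild type range. Gins2 had 60.3 and 62.0 CPM in RepB+/- and 47.7 and 53.8 CPM in wild type, and did not pass the test (log2 fold change 0.27, adjusted p = 0.133 by edgeR).

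Tyms, which makes the thymidylate used in DNA, had 20.5 and 13.4 CPM in RepB+/-, against 12.3 and 9.83 CPM in wild type. It rose by 0.65 ± 0.20 on the log2 scale (adjusted p = 0.0371 by edgeR), with the lower RepB+/- library just above the higher wild type one. RefSeq lists a transcribed Tyms pseudogene, so its reads may be split or dropped in counting. The ribonucleotide reductase genes Rrm1 and Rrm2 and the sliding clamp gene Pcna had log2 fold changes of 0.09, 0.28 and 0.32 and did not pass. E2f1 had 48.1 and 53.9 CPM in RepB+/-, against 36.3 and 36.8 CPM in wild type, a log2 fold change of 0.47 ± 0.11 (adjusted p = 0.0112 by edgeR). The cyclin E genes, whose products drive entry into S phase, did not pass, at 0.22 for Ccne1 and -0.10 for Ccne2.

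Bub1, a kinase of the spindle assembly checkpoint, had 67.1 and 59.6 CPM in RepB+/-, against 42.8 and 39.8 CPM in wild type. Its log2 fold change of 0.62 ± 0.11 was the largest among the mitosis genes (adjusted p = 0.00175 by edgeR). Mad2l1, which inhibits Cdc20 until chromosomes are attached, had 77.8 and 62.2 CPM in RepB+/-, against 58.2 and 46.9 CPM in wild type. It rose by 0.42 ± 0.13 (adjusted p = 0.0395 by edgeR), and the gap between the nearest libraries of the groups was small beside their spread. Kif11, the motor that pushes spindle poles apart, had 93.8 and 79.4 CPM in RepB+/-, against 77.2 and 63.3 CPM in wild type, and did not pass (log2 fold change 0.31, adjusted p = 0.0963 by edgeR). The checkpoint genes Bub1b and Ttk were at -0.05 and 0.26 and did not pass the test.

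The engine of mitosis showed no call. Cdk1 and its cyclins had log2 fold changes of 0.12 (Cdk1), 0.09 (Ccna2), 0.25 (Ccnb1) and -0.08 (Ccnb2) in RepB+/-. The mitotic kinase genes Plk1, Aurka and Aurkb were at -0.17, -0.01 and -0.13, and Birc5, the survivin gene whose product works with Aurkb, was at 0.06. Cdc20, which starts the destruction of cyclin B, had 125 and 131 CPM in RepB+/-, against 134 and 131 CPM in wild type, a log2 fold change of -0.05. Plk1 had 118 and 135 CPM in RepB+/-, against 138 and 147 CPM in wild type. Both RepB+/- libraries lay below both wild type libraries for Cdc20, Bub1b, Plk1 and Aurkb, although the Cdc20 libraries nearest each other were almost level. Such separation downward occurred for 28.0% of all genes tested. Mki67, the gene of the proliferation marker Ki-67, was at 0.13, and Top2a, which untangles sister chromatids, at 0.23.

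**Figure D1:**
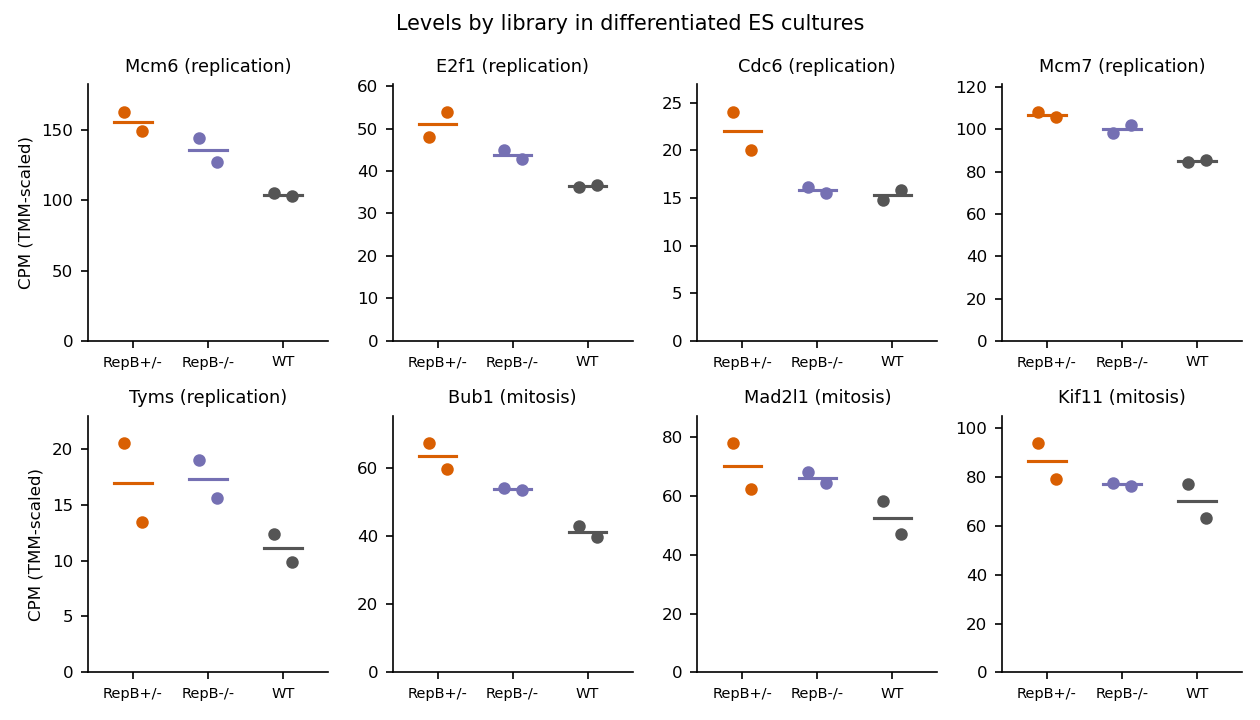
TMM-scaled CPM (y axis, from 0) of 8 genes in the RepB+/-, RepB-/- and wild type (WT) ES libraries; points are libraries and bars the mean of 2. Mcm6 and Bub1 lay above wild type in all 4 RepB libraries, while Cdc6 at 15.5 to 16.2 CPM in RepB-/- was near its 14.8 to 15.9 CPM in wild type.

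**Figure D2:**
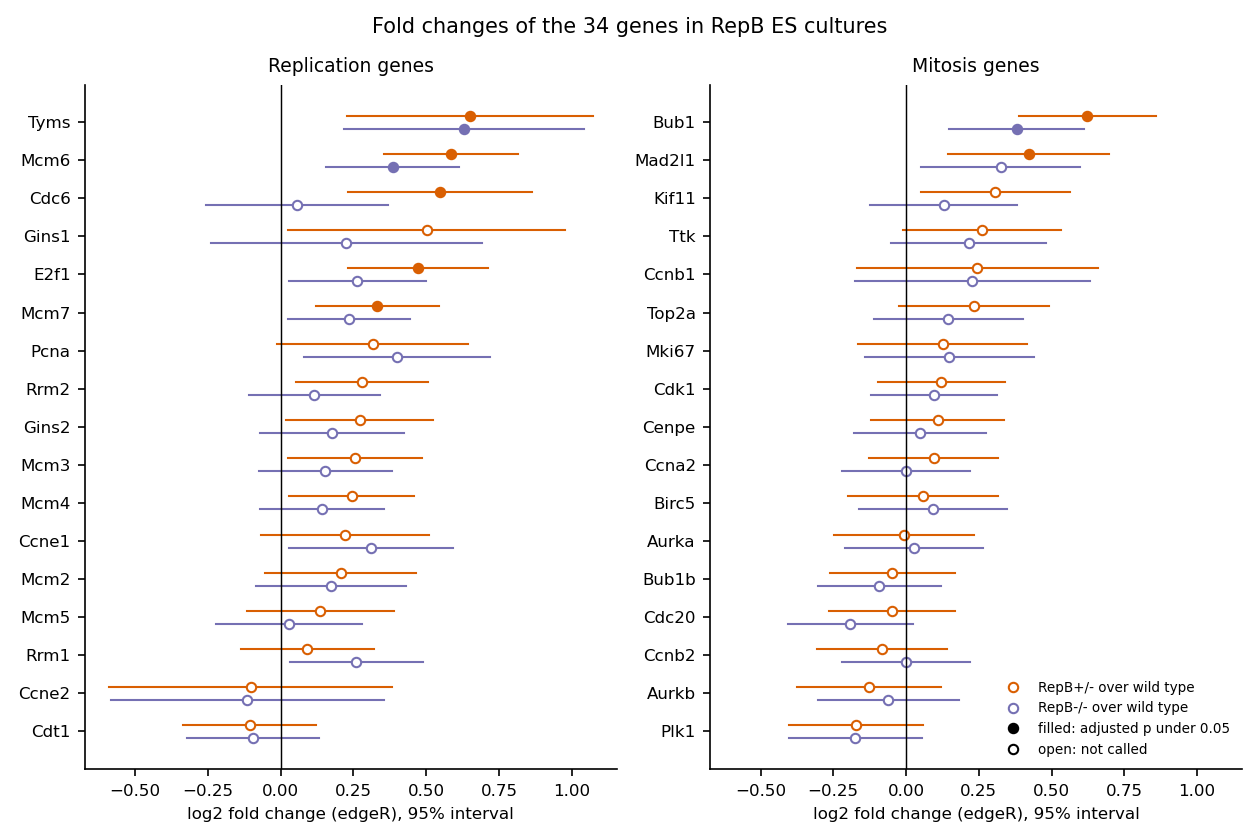
Log2 fold changes of the 34 genes over wild type, with 95% intervals from edgeR, for RepB+/- (orange) and RepB-/- (purple); filled points passed an adjusted p of 0.05. Replication genes lie mostly right of 0, up to 0.65 for Tyms, and mitosis genes spread on both sides, from -0.17 for Plk1 to 0.62 for Bub1 in RepB+/-.

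Single libraries bore on these calls. Bub1 and Mcm6 passed in all 13 alternative fits of the RepB+/- comparison, E2f1 in 11, Cdc6 in 10, Mcm7 and Tyms in 9 and Mad2l1 in 8. Of the 34 genes, 7 were called with all libraries. With the first wild type library left out 3 were called (Mcm6, Bub1 and Mad2l1), and with the second left out 2 (Mcm6 and Bub1). Leaving out the first RepB+/- library gave 3 (Mcm6, E2f1 and Bub1), and leaving out the second, the one that stood apart, gave 10, among them Pcna, Gins1, Ccne1 and Kif11 but not Mcm7.

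RepB-/- cultures were set against the same 2 wild type libraries, so this comparison is not independent of the first. There, 2 of 17 replication genes (Mcm6 and Tyms) and 1 of 17 mitosis genes (Bub1) were higher, and none was lower, beside 7.27% of all genes higher and 5.49% lower. At an unadjusted p under 0.05, 7 replication and 2 mitosis genes were higher and none was lower, beside 15.1% of all genes higher and 12.5% lower. DESeq2 called Mcm6 alone and none lower. Of all genes called in RepB-/-, 57.0% were higher, and 73.4% with total counts alone. The median log2 fold change was 0.18 over replication genes and 0.09 over mitosis genes, beside 0.01 over all genes tested. The replication median was 0.10 without the first wild type library and 0.12 without the first RepB-/- library. The mitosis median was 0.15 without the first wild type library, 0.027 without the second and 0.055 without the first RepB-/- library. No overlap, with RepB-/- higher, was seen for 10 replication and 5 mitosis genes, beside 31.5% of all genes.

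Mcm6 had 144 and 128 CPM in RepB-/-, against 105 and 103 CPM in wild type (log2 fold change 0.38 ± 0.11, adjusted p = 0.0272 by edgeR). Tyms had 18.9 and 15.6 CPM in RepB-/-, against 12.3 and 9.83 CPM in wild type (0.63 ± 0.19, adjusted p = 0.0443 by edgeR). Bub1 had 54.1 and 53.5 CPM in RepB-/-, against 42.8 and 39.8 CPM in wild type (0.38 ± 0.11, adjusted p = 0.0323 by edgeR). In all 3 genes the RepB-/- and wild type libraries did not overlap. None of the 34 genes passed edgeR's test here once either of the wild type libraries, or the first RepB-/- library, was left out, and Mcm6 alone passed when the second RepB-/- library was.

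Several replication genes missed the test although their RepB-/- and wild type libraries did not overlap. Pcna averaged 30.8 ± 4.55 CPM in RepB-/- and 23.3 ± 1.42 CPM in wild type (SD, n = 2 each), at a log2 fold change of 0.40 (adjusted p = 0.0954 by edgeR), and RefSeq lists Pcna pseudogenes on the X chromosome and chromosome 19. Ccne1 had 58.5 and 51.6 CPM in RepB-/-, against 44.9 and 43.9 CPM in wild type, at 0.31. Rrm1 had 228 and 219 CPM in RepB-/-, against 195 and 178 CPM in wild type, at 0.26. Mcm7 and E2f1 were at 0.23 and 0.26. Cdc6 had 16.2 and 15.5 CPM in RepB-/-, against 14.8 and 15.9 CPM in wild type, and the groups overlapped. Cdc20 had 120 and 112 CPM in RepB-/-, against 134 and 131 CPM in wild type, the most negative of the mitosis genes at -0.19 (adjusted p = 0.234 by edgeR). Across both genotypes, 8 replication and 4 mitosis genes were higher in each of the 4 RepB libraries than in any wild type library, beside 22.5% of all genes, and Cdc20, Bub1b and Plk1 were lower in each, beside 20.0% of all genes.

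RepB-/- and RepB+/- cultures were then compared with each other. None of the 34 genes passed edgeR's test, beside 0.0858% of all genes in either direction (0.0198% higher and 0.0660% lower), and DESeq2 called none. At an unadjusted p under 0.05, 1 replication gene (Cdc6) and 1 mitosis gene (Bub1) were lower in RepB-/- and none was higher, beside 3.93% of all genes lower and 2.69% higher. Cdc6 had 16.2 and 15.5 CPM in RepB-/-, against 24.0 and 20.0 CPM in RepB+/-, a log2 fold change of -0.49 with a 95% interval of -0.80 to -0.19 and an edgeR adjusted p of 0.364. Bub1 had 54.1 and 53.5 CPM in RepB-/-, against 67.1 and 59.6 CPM in RepB+/-, a log2 fold change of -0.24 with an interval of -0.47 to -0.01. For Mcm6 the difference was -0.20 with an interval of -0.43 to 0.03. Medians were -0.10 over replication genes and -0.04 over mitosis genes. A p that misses the threshold does not show that the genotypes were alike.

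Further genes of the same processes were read from lists that hold none of the 34. These lists too were chosen with earlier results of these data known, so they are not an independent check. Of 49 other replication genes, 8 were higher and none lower in RepB+/-, and 4 were higher and none lower in RepB-/-. Over all genes tested, 9.12% were higher and 6.84% lower in RepB+/-, and 7.27% and 5.49% in RepB-/-. The 4 of 49 in RepB-/- were close to the share of all genes. Pole, the catalytic subunit of DNA polymerase epsilon, averaged 50.3 CPM in RepB+/- and 29.2 CPM in wild type (log2 fold change 0.79 ± 0.12, adjusted p = 0.000508 by edgeR). Rfc5, a subunit of the loader that places the Pcna clamp on DNA, averaged 38.9 CPM in RepB+/- and 26.6 CPM in wild type (0.55 ± 0.12, adjusted p = 0.00618 by edgeR). Pola1, a DNA polymerase alpha gene that also passed, lies on the X chromosome, whose median log2 fold change was 0.37 in RepB+/- and 0.36 in RepB-/-. Of 54 other mitosis genes tested, 4 were higher and none lower in RepB+/-, among them the X-linked genes Kif4 and Cenpi. That count too was close to the share of all genes. In RepB-/-, Kif4 and Cenpi were higher and Ccnf was lower.

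Genes that set the pace of the cycle were called in both directions, as were genes over all those tested. The counts below were not tested against the shares of all genes. Of 29 regulators of G1 and S phase, 4 were higher and 3 lower in RepB+/-, and 4 higher and 1 lower in RepB-/-. The shares of all genes were 9.12% higher and 6.84% lower in RepB+/-, and 7.27% and 5.49% in RepB-/-. The cyclin D2 gene Ccnd2 averaged 657 CPM in RepB+/-, 690 CPM in RepB-/- and 372 CPM in wild type, and Ccnd1 averaged 69.1, 58.9 and 38.2 CPM in the same order. Both passed in both comparisons. Foxm1, a factor that drives mitosis genes, rose by 0.40 in RepB+/- (adjusted p = 0.0203 by edgeR). Myc fell by 0.44 on the log2 scale in RepB+/- and by 0.58 in RepB-/-. Of 16 CDK inhibitor and arrest genes, 1 was higher and 2 lower in RepB+/-, and 2 were higher and 2 lower in RepB-/-. Cdkn1c, which encodes the inhibitor p57, fell by 0.88 in RepB+/- and by 0.69 in RepB-/-, and Cdkn2d, an inhibitor gene of the INK4 family, fell by 0.81 and by 0.85. Trp53, the gene of the p53 tumour suppressor, rose by 0.49 in RepB+/-, and Cdkn2a and Cdkn2b rose in RepB-/- by 0.52 and 0.50.

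Reads over strain variants could be split by parental allele, but in the ES line the median gene of most chromosomes had almost only 129 reads. In the ES cultures 33 of the 34 genes had at least 20 allelic reads in every library. Of these, 19 had at least 95% of allelic reads from 129 in all 6 libraries and 11 had between 20% and 80%, beside 57.2% and 31.9% of 9277 autosomal genes with enough reads. In the first wild type library the median 129 share over genes was 96.6% to 99.8% on 14 autosomes and 45.6% to 52.9% on chromosomes 5, 7, 8, 9 and 13. Of the 19 genes, 15 lay on those 14 autosomes, and of the 11 genes, 7 lay on the other 5. Near-complete 129 reads are thus common on most chromosomes of this line, and for most of the 34 genes they do not compare the use of alleles. Genes of 1 chromosome could differ. In the first wild type library Mcm5 had 35.6% and Cdt1 99.5% on chromosome 8, and Top2a had 52.3% and Aurkb 99.5% on chromosome 11. The 11 genes were Mcm5, Mcm7, Rrm1, Cdc6 and Ccne1 among replication genes and Top2a, Ccnb2, Plk1, Aurka, Birc5 and Ttk among mitosis genes. Cdc6 had 129 shares of 46.3% and 53.1% in RepB+/-, against 49.2% and 45.9% in wild type, from 464 and 81 against 191 and 133 reads, with overlapping 95% Clopper-Pearson intervals. Mcm7 had 49.7% and 58.6% in RepB+/-, against 47.2% and 53.6% in wild type, also with overlapping intervals. For these genes, called higher in RepB+/-, no shift between alleles was detectable at this depth. Intervals of shares cover counting error only.

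In MEF most mitosis genes were higher in the RepB library than in the wild type library, while Mcm2, Mcm3, Mcm5 and Mcm6 were lower. This was 1 RepB library against 1 wild type library, with no replicate check and no test, and ratios are given with 95% intervals for counting error only. Of the 17 mitosis genes, 15 were higher in the RepB library and 2 lower, with a median log2 ratio of 0.44. Of the 17 replication genes, 11 were lower and 6 higher, with a median of -0.11 that turned to 0.02 when libraries were scaled by total counts alone. Over 11680 genes with at least 1 CPM the median was 0.03. By total counts, the median of all genes was 0.16, and 10 of 17 replication and 15 of 17 mitosis genes were above 0. Past 1.5-fold were 5 mitosis genes upward and 1 downward and no replication gene, beside 11.8% of all genes upward and 12.7% downward. With total counts alone, 8 mitosis genes and 1 replication gene were past 1.5-fold upward and 1 mitosis gene downward.

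Most of the helicase genes were among the lower ones. Mcm2 had 416 CPM in the RepB library, against 592 CPM in the wild type library (log2 ratio -0.51, interval -0.56 to -0.46). Mcm6 had 321 CPM, against 449 CPM (-0.49), Mcm3 359 CPM, against 488 CPM (-0.44), and Mcm5 400 CPM, against 533 CPM (-0.41), each pair with the RepB library first. These 4 stayed negative with total counts alone, at -0.38, -0.35, -0.31 and -0.28. Mcm4 was at -0.08 and Mcm7 at 0.05, and with total counts alone both were above 0. The loader gene Cdt1, Gins2 and E2f1 were at -0.33, -0.31 and -0.29. Gins1 went the other way, with 19.4 CPM in the RepB library, against 13.3 CPM in the wild type library (0.54, interval 0.27 to 0.83), and Ccne2 was at 0.45.

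Cenpe, the kinetochore motor that brings chromosomes to the spindle equator, had 185 CPM in the RepB library, against 93.3 CPM in the wild type library, the highest ratio of the 34 genes at 0.99 (interval 0.89 to 1.09). Mad2l1 had 55.6 CPM, against 31.4 CPM (0.82). Cdk1 had 219 CPM in the RepB library, against 133 CPM in the wild type library, and Ccnb1 17.1 CPM, against 10.4 CPM, both at 0.72. Ccna2 was at 0.57, Aurka at 0.59, Bub1 at 0.58, Birc5 at 0.51 and Ttk at 0.44. The paralogue Ccnb2 was opposite to Ccnb1, with 54.7 CPM in the RepB library, against 101 CPM in the wild type library (-0.88, interval -1.001 to -0.76). RefSeq lists a pseudogene for each of these cyclin genes. Mki67 was lower too, with 351 CPM in the RepB library, against 466 CPM in the wild type library (-0.41). The Cdk1 and Ccnb2 promoters printed above both hold CHR and CCAAT letters.

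**Figure D3:**
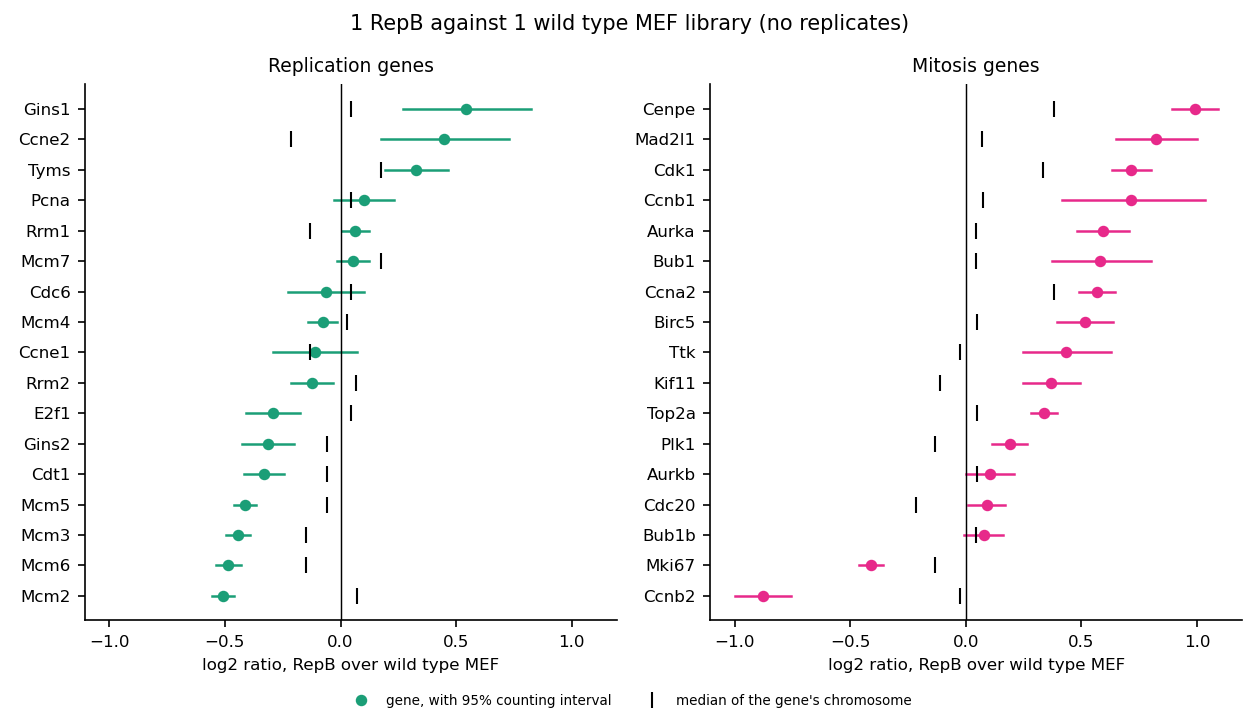
Log2 ratios of the RepB over the wild type MEF library for replication and mitosis genes, with 95% counting intervals (bars) and the median of each gene's chromosome (black ticks). Of the mitosis genes 15 lie above 0 and above their chromosome's median, while Ccnb2 at -0.88 and Mki67 at -0.41 lie below both.

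Whole chromosomes differed between the MEF libraries. Median log2 ratios were 0.38 on chromosome 3, 0.33 on chromosome 10 and 0.40 on chromosome 15, and -0.21 on chromosome 4 and -0.15 on chromosome 1. Set against its own chromosome, each of 15 mitosis genes was above and 2 below, with a median difference of 0.38, and 6 replication genes were above and 11 below, with a median difference of -0.12. Cenpe and Ccna2 on chromosome 3 were 0.61 and 0.18 above their chromosome, and Cdk1 on chromosome 10 was 0.38 above. Mad2l1 on chromosome 6, Ccnb1 on chromosome 13 and Bub1 on chromosome 2 lay on chromosomes with medians of 0.07, 0.07 and 0.04.

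Median shares of 129 reads differed by 5 points or more between the MEF libraries on chromosomes 1, 3, 4, 7, 10 and 15. For 10 of the 34 genes the 95% Clopper-Pearson intervals of the 129 share lay apart between the MEF libraries (29.4%), beside 22.3% of 8886 autosomal genes with enough reads. Plk1 on chromosome 7 had 68.9% of 1777 allelic reads from 129 in the RepB library, against 48.6% of 1032 in the wild type library. Mki67 and Rrm1, on the same chromosome, had 66.1% and 61.1% in the RepB library, against 47.4% and 42.9% in the wild type library, and the medians over genes of that chromosome were 65.4% and 46.1%. Cdc20 on chromosome 4 had 27.2% in the RepB library, against 50.6% in the wild type library, where the chromosome medians were 34.2% and 56.9%. Cdk1 on chromosome 10 had 66.1% in the RepB library, against 52.9% in the wild type library, with chromosome medians of 65.8% and 50.8%. Of 11 genes on those 6 autosomes, 9 had intervals apart, and of the 23 others only Bub1b did. Ccnb1 was read mostly as 129, at 85.6% in the RepB library and 97.1% in the wild type library. The part of these chromosome-wide differences in the levels was not tested.

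**Figure D4:**
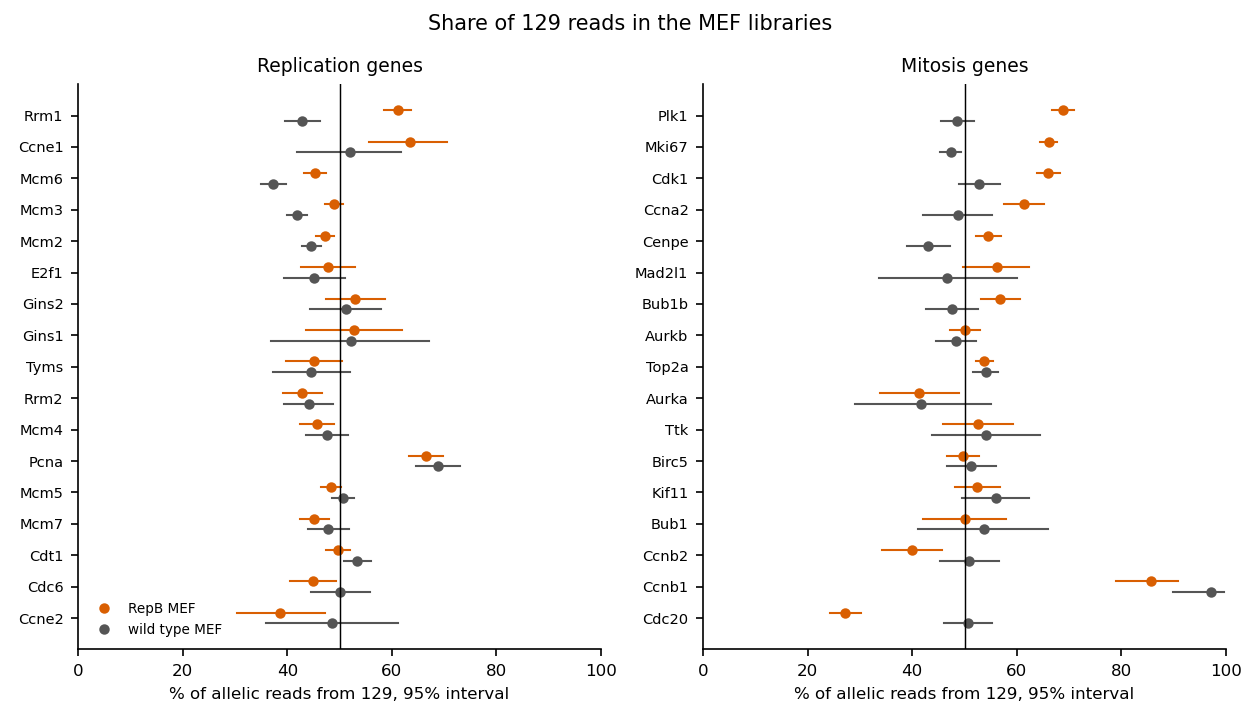
Share of allelic reads from 129 (x axis, percent, line at 50) in the RepB (orange) and wild type (grey) MEF libraries, with 95% Clopper-Pearson intervals. Plk1, Mki67, Rrm1 and Cdk1 sit at 61.1% to 68.9% in the RepB library and Cdc20 at 27.2%, while most other genes overlap between the libraries.

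Further cell cycle genes were read in the MEF libraries too. Of 54 other mitosis genes, 15 were at least 1.5-fold higher in the RepB library and none lower, with a median log2 ratio of 0.31. Of all genes with at least 1 CPM, 11.8% were at least 1.5-fold higher and 12.7% lower. Of 49 other replication genes, 5 were higher and 2 lower, with a median of 0.08. Smc4, a condensin subunit, had 259 CPM in the RepB library, against 123 CPM in the wild type library. Of 16 CDK inhibitor and arrest genes, 2 were at least 1.5-fold higher and 1 lower. Cdkn1a, the gene of the CDK inhibitor p21, had 205 CPM in the RepB library, against 68.9 CPM in the wild type library, and Ccng1 141 CPM, against 62.5 CPM. Cdkn1c had 17.1 CPM in the RepB library, against 42.0 CPM in the wild type library. Of 28 regulators of G1 and S phase with at least 1 CPM, 1 was higher and 6 were lower. Among these Ccnd2 had 0.154 CPM in the RepB library, against 7.68 CPM in the wild type library. Of 11 fibroblast markers, whose summed level was 33222 CPM in the RepB library and 39450 CPM in the wild type library, 4 of the 10 with at least 1 CPM were at least 1.5-fold lower and none higher. Col1a1 had 18103 CPM in the RepB library and 22403 CPM in the wild type library, while Thy1 and Lum were at 0 in the RepB library and had 10.1 and 0.431 CPM in the wild type library. The part of this in the levels of cell cycle genes was not tested.

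Wild type ES cultures and wild type MEF were also set side by side, from separately deposited tables of raw counts scaled together. The replication genes were lower in the ES cultures, with a median log2 ratio of -1.64 (3.13-fold higher in MEF). Of 17, 15 were past 1.5-fold lower, beside 25.6% of all genes lower and 34.2% higher. With total counts alone 14 were past 1.5-fold lower. Ccne2 then fell short at a log2 ratio of -0.43, and Cdt1 turned to 0.10. The mitosis genes had a median of -0.20, which turned to 0.03 with total counts alone. Of these 17, Cdc20, Plk1 and Aurkb were past 1.5-fold lower in the ES cultures and Bub1 was past 1.5-fold higher. With total counts alone none was past 1.5-fold lower and 2 were higher. The median of all genes was 0.09 with TMM and 0.325 with total counts (log2). Per kilobase of exon, Mcm6 had 35.1 and 34.1 CPM in the ES libraries, against 174 CPM in MEF, and Tyms had 3.13 and 2.48 CPM per kilobase, against 16.7. Cdt1 and Ccne1 were the exceptions, with 75.4 and 79.1 CPM per kilobase in the ES libraries, against 84.6 in MEF, for Cdt1, and 22.2 and 21.6, against 20.5, for Ccne1. Top2a had 73.5 and 69.4 CPM per kilobase in the ES libraries, against 71.9 in MEF, and Bub1 had 9.53 and 8.82, against 5.62. With 1 MEF library these differences have no test.

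**Figure D5:**
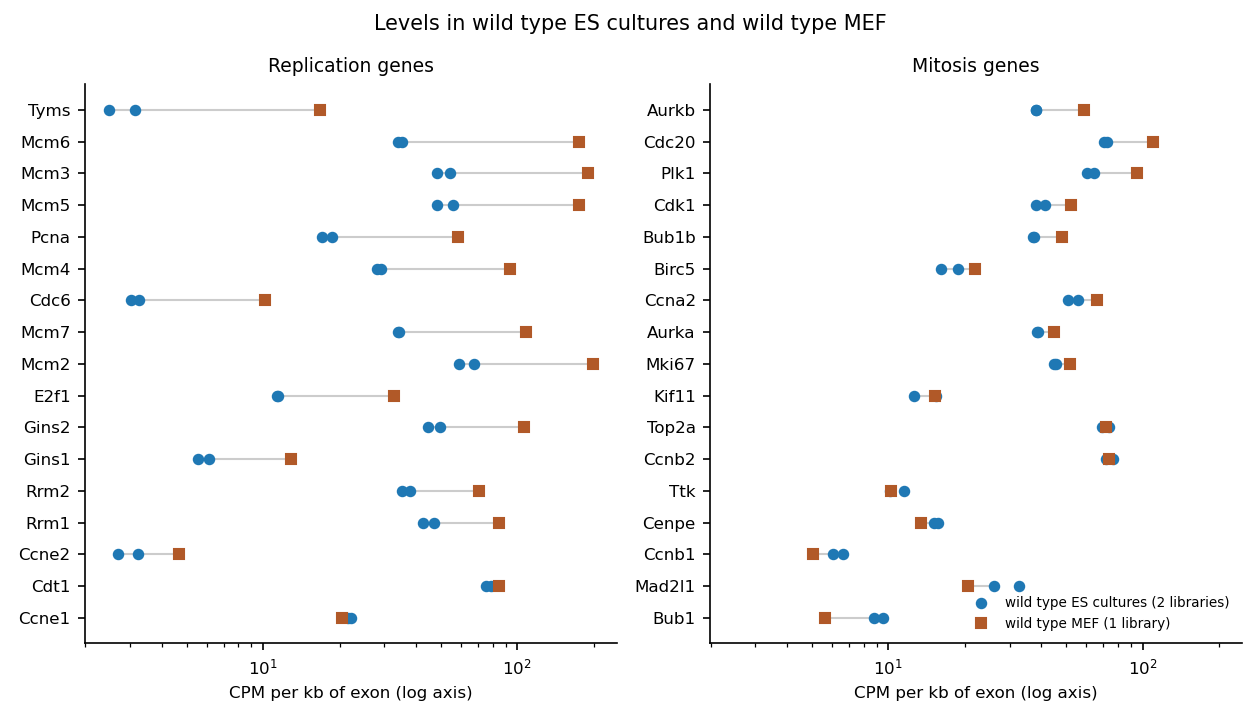
Levels per kilobase of exon (log axis) of each gene in the 2 wild type ES libraries (circles) and the wild type MEF library (squares). With TMM scaling, all replication genes but Cdt1 and Ccne1 lie past 1.5-fold to the left in the ES cultures, up to 5.94-fold for Tyms. Of the mitosis genes, Cdc20, Plk1, Aurkb and Bub1 are past 1.5-fold.

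Within the wild type ES cultures, scaled here among the ES libraries alone, the levels per kilobase ranged widely. Cdt1 led with a mean of 80.1 ± 2.96 CPM per kilobase (SD, n = 2), followed by Ccnb2 at 76.9 ± 3.38, Cdc20 at 74.2 ± 1.17 and Top2a at 74.1 ± 2.73, and those neighbours lay within their spread. At the other end were Cdc6 at 3.26 ± 0.16, Ccne2 at 3.07 ± 0.39 and Tyms at 2.91 ± 0.46, also within their spread. Among the helicase genes Mcm2 was highest at 65.8 ± 6.42 and Mcm4 lowest at 29.6 ± 0.97.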

How the data were processed

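The members and all gene lists were chosen with earlier results of these data known. Per the file headers, the authors deposited whole-number counts of reads per gene (all reads, 129 reads and CAST reads) in 3 tables with featureCounts columns and mm9 positions (mouse). The tools named for the series, per the submitters' processing notes, are cutadapt, TopHat, Novoalign, featureCounts, bedtools, SAMtools, HOMER and Juicer. Their versions and roles, the strand setting and the handling of multiply mapped reads are not given in the sources used here. The other 42 samples of the series were not analysed here.

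The 6 ES libraries were fitted together in edgeR 4.0.16 (R 4.3.3) on the counts of all reads, with genotype as the only term, by the quasi-likelihood test after TMM scaling. Genes were kept by filterByExpr (at least 10 counts in enough libraries and 15 in all). p-values were adjusted by Benjamini-Hochberg over 15149 genes and called at 0.05. The common biological coefficient of variation was 9.49%. The fit was tested on simulated data, but no error rate from it is given here, so it does not bear on the calls. Alternatives were DESeq2 1.42.0, other scalings, no filter, only the groups compared, a replicate block and leaving out each library. Ratios between the MEF libraries, on the log2 scale from CPM after TMM, used a prior count of 2 and a minimum mean of 1 CPM. Allelic shares needed 20 reads and have 95% Clopper-Pearson intervals. No molecular identifiers are stated, so intervals cover counting error only. Genes described by library were those called in an ES comparison (up to 6 of each kind, or the 3 with the lowest p) and the 3 of each kind with the largest MEF ratios. Other values were given where members of the same complex or pathway were described. Promoter sequences and pseudogene names came from RefSeq (GRCm38.p6).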

Additional observations from a re-analysis of the deposited data

Results flagged for a closer look

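Several genes lay on 1 side of wild type in all 4 RepB ES libraries and on the other side in the single RepB MEF library. Of all genes tested, 22.5% lay above and 20.0% below wild type in all 4 RepB ES libraries. In MEF, 6149 of 11680 genes had a ratio above 0 and 5531 below. The share of all genes with opposite sides was not computed, so the pattern is not shown to be particular to these genes. The difference between the cell types was not tested. Mcm3, Mcm4, Mcm6 and E2f1 were higher in every RepB ES library than in both wild type ES libraries, and their log2 ratios of the RepB to the wild type MEF library were -0.443, -0.0774, -0.485 and -0.291. Mcm4 turned to 0.05 in MEF with total counts alone. Cdc20 and Plk1 were lower in every RepB ES library than in both wild type ES libraries, with MEF log2 ratios of 0.0894 and 0.189. For Cdc20 the nearest ES libraries were almost level, at 130.799 CPM in RepB+/- and 130.817 CPM in wild type. Mcm3 and Mcm6 lie on chromosome 1, Cdc20 on chromosome 4 and Plk1 on chromosome 7, where the share of 129 reads differed between the MEF libraries, and in all 4 genes the intervals of the share lay apart. The part of this in their ratios was not tested.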

How the results depend on the processing

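Of the results that answer a comparison, 209 values under alternative settings kept their side and direction, 37 moved and 4 turned round. For single named genes the numbers were 413 kept, 31 weaker, 5 stronger and 19 turned round. Leaving out 1 library at a time gave 1 to 7 replication and 1 to 3 mitosis genes higher in RepB+/- than in wild type, and 0 to 3 and 0 to 1 in RepB-/-. In RepB+/- the replication median then ran from 0.21 to 0.33 and the mitosis median from 0.0030 to 0.18, and in RepB-/- from 0.10 to 0.26 and from 0.027 to 0.15. Between RepB-/- and RepB+/- the medians ran from -0.13 to 0.0071 for replication genes and from -0.10 to 0.045 for mitosis genes. DESeq2 called 1 mitosis gene higher in RepB+/-, and 1 replication gene and 0 mitosis genes in RepB-/-. Total counts alone gave a replication median of 0.35 in RepB+/- and raised the share of higher calls among all genes to 74.0% from 57.2%, and moved the median of all genes to 0.10 from 0.02. The mitosis median in RepB-/- was 0.093, and became 0.082 with DESeq2, 0.081 with RLE size factors, 0.18 with total counts, 0.10 with autosomal TMM and 0.10 without a filter, which called 2 mitosis genes.

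Replicate numbers are shared across genotypes, but the correlations of same-numbered libraries were 0.108, 0.0696 and 0.186 over only 2 numbers, and the labels name no shared animal or day, so pairing was not taken as given. With a replicate block, 6 replication and 3 mitosis genes were higher in RepB+/-, 5 and 2 in RepB-/-, and none between RepB-/- and RepB+/-.

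Genes near 0 turned round. In RepB-/- against wild type, Ccnb2 was 0.084 with total counts, 0.0070 with autosomal TMM, 0.011 without a filter, 2.7e-05 with the block, 0.0015 with only the groups compared and -0.069 to 0.064 with a library left out, where Cdc6 ran from -0.0063 to 0.11 and Cenpe from -0.0081 to 0.10. In RepB-/- against RepB+/-, Tyms was 0.0012 with DESeq2 and 0.017 with the block. With a library left out, Tyms ran from -0.23 to 0.37, Mad2l1 from -0.23 to 0.090, Gins1 from -0.51 to 0.22, Mcm2 from -0.13 to 0.065 and Cenpe from -0.14 to 0.045. With total counts the MEF medians were 0.020 for replication and 0.57 for mitosis genes, and the medians of wild type ES over MEF were -1.41 and 0.033. Leaving out a wild type ES library gave -1.65 to -1.55 for replication genes. The cause was not tested. The lower depth of RepB+/- replicate 2 limits the precision of low genes such as Tyms and Gins1.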
